A study of Mus musculus with 6 samples.

Results

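The genes described here are 10 transcription factors and cofactors that set whether a vascular smooth muscle cell (VSMC) is contractile or dedifferentiated, measured in mouse cells that received miR-128 or a scrambled miRNA. They were chosen by name: serum response factor (Srf), its cofactors myocardin (Myocd) and the myocardin-related factors Mrtfa and Mrtfb (also called Mkl1 and Mkl2), the Krüppel-like factors Klf2, Klf4 and Klf5, the MEF2 factors Mef2a and Mef2c, and the ternary complex factor Elk3. All 22 probes annotated to them were taken from the 25697 probes of an Illumina bead array. Of these, 16 probes, from 9 of the 10 genes, were detected on at least 2 of the 6 arrays and could be tested.

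Primary VSMCs of C57BL/6J mice, labelled as 8 weeks of age, were infected with a lentivirus that carried miR-128 (mir128) or 1 of a pair of scrambled sequences (shScr1 and shScr2). Cells in all 3 groups were infected and were selected with puromycin for 2 days, and total RNA was taken after 5 days, so no group stands for uninfected cells. Each group had 2 arrays, called A and B, which the study describes as biological replicates. The vascular bed, and whether cells of several animals were pooled, are not stated in the labels, so p-values measure the spread between these cultures. In a bulk culture, fewer cells of a type and less RNA per cell cannot be told apart.

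SRF binds the CArG box, a short DNA element, and acts through the cofactors that join it. Myocardin and the MRTFs bring SRF to contractile genes, and MRTFs are held in the cytoplasm by monomeric actin until actin polymerises, whereas ternary complex factors such as ELK3 compete for SRF and direct it to growth-responsive genes. KLF4 and KLF5 are known in smooth muscle as factors of the dedifferentiated state, KLF2 is best known as a flow-induced factor of endothelium, and MEF2 factors act in both muscle differentiation and growth responses.

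The sequence of the agent and the promoters of Srf, Klf2 and Mrtfb are shown here, because each had a probe past the threshold against at least 1 scrambled group and a window that held a motif searched for. The mature arms of mouse miR-128 are given from RefSeq (GRCm38.p6) with the seed, bases 2 to 8, in capitals. The 3p arm is the same from both miR-128 genes, at chr1:128202404-128202424 on the plus strand and chr9:112118644-112118664 on the minus strand, and both 5p arms share another seed. Which arm or gene the lentivirus carried is not stated in the sources used here.
miR-128-3p: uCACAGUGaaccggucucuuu
miR-128-1-5p: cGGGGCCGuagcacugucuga
miR-128-2-5p: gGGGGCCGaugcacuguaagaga

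Promoter windows of 300 bases around annotated transcript starts were available from RefSeq (GRCm38.p6) for 8 of the 10 genes, 13 windows in all. Each was searched on both strands for the CArG box, the site of SRF, and for the MEF2 box, the site of the MEF2 factors. A CArG match was CC, then 6 bases of A or T, then GG, with no mismatch allowed. Matches are in capitals, and no CArG match shares bases with a MEF2 match in these windows. The Srf window (chr17:46556113-46556412, minus strand) held 2 CArG boxes, which began 82 and 62 bases upstream of the start. It was the only 1 of the 13 windows with a CArG box, against 535 of the 32851 windows searched (1.63%), of which 6 (0.0183%) held 2 or more. The search did not cover every chromosome.
Srf: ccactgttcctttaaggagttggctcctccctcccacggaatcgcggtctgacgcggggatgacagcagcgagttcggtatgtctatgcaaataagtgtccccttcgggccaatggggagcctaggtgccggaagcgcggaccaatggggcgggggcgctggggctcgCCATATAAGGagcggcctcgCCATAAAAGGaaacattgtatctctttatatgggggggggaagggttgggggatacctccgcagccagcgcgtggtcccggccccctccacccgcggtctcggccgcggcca

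A MEF2 box was found in 3 of the 13 windows, against 1047 of all windows searched (3.19%). They were the Klf2 window (chr8:72318812-72319111, plus strand), where the box began 118 bases upstream, 1 of 3 Mrtfb windows (chr16:13358171-13358470, plus strand), where it began 165 bases upstream, and the Mef2a window, where it began 2 bases upstream as CTAAAAATAG. A match is a string of letters only, and binding was not measured.
Klf2: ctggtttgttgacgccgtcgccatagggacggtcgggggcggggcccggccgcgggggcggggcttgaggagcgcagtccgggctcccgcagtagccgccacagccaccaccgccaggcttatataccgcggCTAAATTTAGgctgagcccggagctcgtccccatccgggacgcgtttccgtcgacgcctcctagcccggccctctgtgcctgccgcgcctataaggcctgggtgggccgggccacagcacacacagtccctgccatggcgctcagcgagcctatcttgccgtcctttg
Mrtfb: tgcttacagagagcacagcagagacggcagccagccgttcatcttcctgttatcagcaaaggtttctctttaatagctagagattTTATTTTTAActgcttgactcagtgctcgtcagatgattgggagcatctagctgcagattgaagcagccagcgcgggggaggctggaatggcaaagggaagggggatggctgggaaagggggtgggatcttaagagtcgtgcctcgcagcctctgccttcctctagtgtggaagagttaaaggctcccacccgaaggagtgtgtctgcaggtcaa

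Levels are normalized log2 intensities, and a probe counts as detected on an array when its deposited detection p-value was under 0.05. The lowest detected level lay between 4.70 and 4.97 on the 6 arrays. Changes are differences of group means with the standard error (SE) and 95% interval of limma, and p-values are adjusted by Benjamini-Hochberg over all 13236 probes tested, with a threshold of 0.05. The mir128 A array stood apart from the others: 13277 probes were detected on it against 11589 to 12343 on the other 5, and the upper quartile of its raw intensities was 373 against 201 to 252. Replicates correlated at 0.992 for shScr1, 0.99 for shScr2 and 0.971 for mir128. The SD of the A minus B differences was 0.285, 0.313 and 0.541 in that order. The test shares 1 spread per probe over the 3 groups, so its SE does not measure the spread of the mir128 arrays alone. Of the 6 markers that define smooth muscle, 5 were detected on at least 2 arrays. Acta2, Tagln and Smtn were detected on 6 arrays, Lmod1 on 3, Myh11 on the 2 mir128 arrays only, and calponin 1 (Cnn1) on 0. The endothelial markers Pecam1, Cdh5, Vwf, Emcn and Tie1 and the leukocyte markers Ptprc, Adgre1, Itgam, Cd52 and Tyrobp were detected on 0 arrays. Other markers of those cells were detected, namely Kdr on 6 arrays, Esam on 5, Tek on 3, Cd14 on 6 and Lyz2 on 5, as were 5 of 6 fibroblast markers.

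Klf5, and Srf on 1 of its 2 probes, were higher with miR-128 than in each scrambled group. Mrtfb was detected mainly with miR-128, and its probes could be tested only because the mir128 arrays detected them. Klf2 was lower than in shScr2 but not than in shScr1, and Klf4, Mef2a, Mef2c, Mrtfa and Elk3 had no probe past the threshold in either comparison. Against the mean of both scrambled groups, 4 of the 16 tested probes rose and 0 fell; 2 of the 4 were the Mrtfb probes, whose direction the detection filter fixed. Of all 13236 probes, 26.8% passed the threshold in that comparison and 13.5% passed it as higher, so the share of regulator probes that moved at all is close to that of the array. Among probes detected on all 6 arrays, fitted alone, 2 of 12 regulator probes and 32.3% of all probes passed. The median change was −0.08 over the 16 probes and −0.02 over all probes on the log2 scale.

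Against shScr1, 4 of the 16 probes rose (20.8% of all probes passed in either direction, 10.5% as higher). Against shScr2, 3 rose and 1 fell (18.9% of all probes passed in either direction, 9.84% as higher and 9.1% as lower). These comparisons share the mir128 arrays, so they are given side by side and not as independent evidence. Both mir128 arrays lay beyond all 4 scrambled arrays for 5 of the 16 probes, 4 above and 1 below, against 46.2% of all probes.

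**Figure D1:**
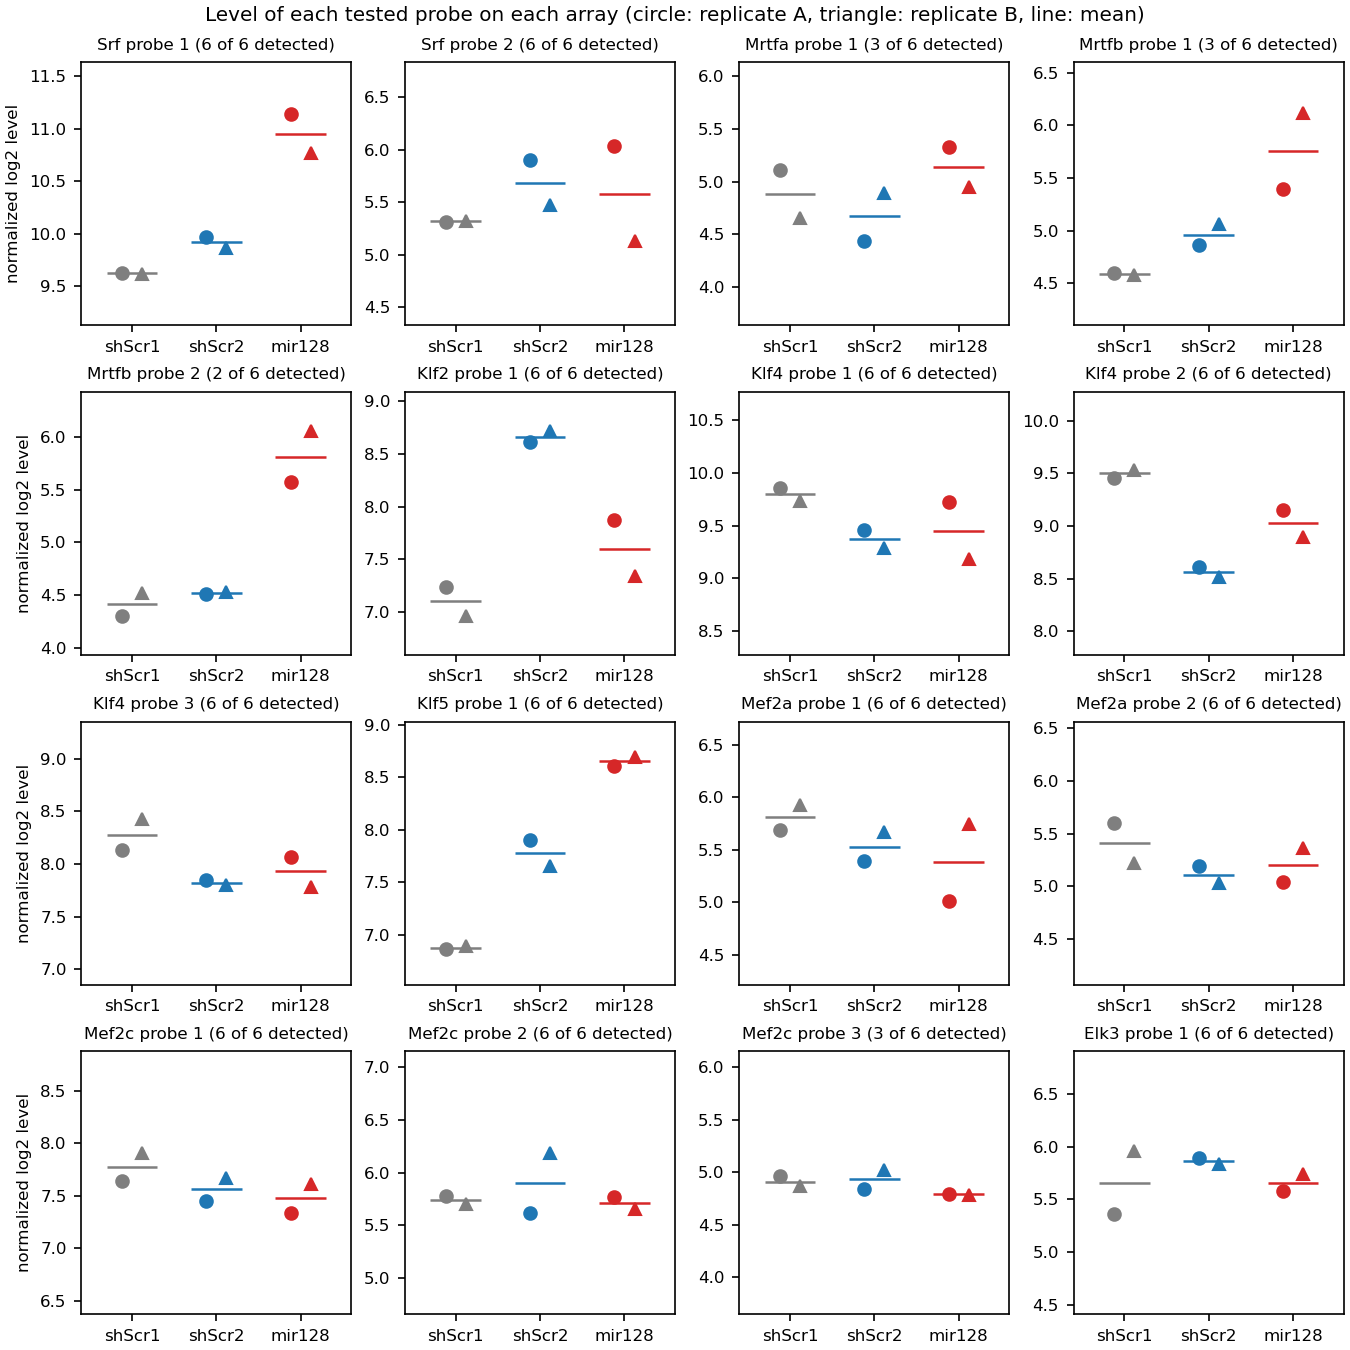
Normalized log2 level (y axis, a separate range for each panel) of the 16 tested probes on each array, by group (x axis), with circles for replicate A, triangles for replicate B and a line at each group mean. The mir128 arrays lie above all scrambled arrays for Srf probe 1, both Mrtfb probes and Klf5, and between the scrambled groups for Klf2 and Klf4 probe 2.

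Srf, the DNA-binding hub of the network, was measured with 2 probes that did not give the same answer. On Srf probe 1 the levels were 9.63 and 9.62 in shScr1, 9.97 and 9.86 in shScr2, and 11.14 and 10.77 in mir128, for arrays A and B in turn. Both mir128 arrays stood clear of all 4 scrambled arrays, with the shScr2 arrays slightly above the shScr1 arrays. The mean was 9.63 ± 0.0136 (SD, n = 2) in shScr1, 9.92 ± 0.0769 in shScr2 and 10.95 ± 0.26 in mir128. The raw intensities behind these were 903.7 and 800.4, 983.3 and 850.7, and 3404 and 1751.

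Srf probe 1 rose 2.27-fold against both scrambled groups (1.18 ± 0.16 SE on the log2 scale, interval 0.80 to 1.57, adjusted p = 0.00424, limma). The rise was 2.51-fold against shScr1 (adjusted p = 0.00633, limma) and 2.05-fold against shScr2 (adjusted p = 0.0138, limma). Between the scrambled groups the probe differed by 0.29 (interval −0.16 to 0.74, adjusted p = 0.68, limma). Left with 1 array, a scrambled group no longer gave a call: the adjusted p in limma against shScr1 was 0.0673 and 0.0701 without its A or B array, and against shScr2 0.085 and 0.104, while the log2 change stayed between 0.98 and 1.34.

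Srf probe 2 was detected on all 6 arrays but near the limit of detection, at 5.31 and 5.32 in shScr1, 5.90 and 5.47 in shScr2, and 6.03 and 5.13 in mir128. The mir128 arrays overlapped both scrambled groups and held both the highest and the lowest value. Its change against both scrambled groups was 0.08 ± 0.27 SE on the log2 scale, with an interval of −0.56 to 0.72 (adjusted p = 0.851, limma). At such low levels the 16 added to the corrected signals in processing makes changes smaller. The interval of probe 2 ended at 0.72, below the 0.80 at which that of probe 1 began. How much of the gap between the probes comes from the added 16 was not tested. Averaged over both probes, Srf differed by 0.63 ± 0.20 SE, which was not past the threshold (adjusted p = 0.0579, limma). The files do not say which transcript stretch each probe reads.

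Myocardin, the cofactor of SRF that is most restricted to heart and smooth muscle, was at the limit of detection. Myocd probe 1 read 4.83 and 4.43 in shScr1, 4.54 and 4.83 in shScr2 and 4.79 and 4.31 in mir128, with overlapping groups. Myocd probe 2 read 4.40 and 4.49, 4.31 and 4.35, and 4.83 and 4.8, with both mir128 arrays above the 4 scrambled arrays. Probes 1 and 2 were each detected on 1 array, mir128 A, and the third probe on 0 arrays. The detection p-value of Myocd probe 2 was 0.0188 on mir128 A and 0.0551 on mir128 B, against 0.291 to 0.835 on the scrambled arrays. Since no Myocd probe was detected on 2 arrays, none entered the reported test. With no detection filter, Myocd probe 2 passed against both scrambled groups (0.43, adjusted p = 0.0314, limma) and against shScr2 (0.49, adjusted p = 0.0403, limma) but not against shScr1 (0.36, adjusted p = 0.0838, limma), and these differences are between levels at the limit of detection. Probes 1 and 3 did not pass in that fit, in which 12.4% of all 25697 probes passed against both groups.

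Mrtfb, an actin-regulated cofactor of SRF, was detected mainly with miR-128. On Mrtfb probe 2 the levels were 4.30 and 4.52 in shScr1, 4.51 and 4.53 in shScr2, and 5.57 and 6.06 in mir128. It was detected on both mir128 arrays and on 0 of the 4 scrambled arrays, so the scrambled values are background and only a lower bound on the fold can be given. The level was at least 1.86-fold higher than in shScr1 (adjusted p = 0.00775, limma) and at least 1.86-fold higher than in shScr2 (adjusted p = 0.0107, limma). As the probe entered the test only through the group where it is high, these p-values lend the direction no support.

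Mrtfb probe 1 read 4.60 and 4.58 in shScr1, 4.86 and 5.06 in shScr2, and 5.40 and 6.12 in mir128. It was detected on both mir128 arrays and on shScr2 B, and the mir128 arrays again lay above the rest. Against shScr1, where it was not detected, it was at least 1.79-fold higher (adjusted p = 0.0244, limma). Against shScr2 the difference was 0.80 ± 0.26 SE on the log2 scale (interval 0.19 to 1.41) and did not pass (adjusted p = 0.0723, limma). It passed without mir128 A (1.16, adjusted p = 0.0115, limma) and under median scaling of the arrays (1.04, adjusted p = 0.026, limma), as did the mean of both probes (1.04, adjusted p = 0.02, limma), and it was 0.44 without mir128 B (adjusted p = 0.0956, limma). The mean of both probes takes in probe 2, which no scrambled array detected, so it sets no upper limit on the change either. The third Mrtfb probe was detected on 0 arrays.

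Against both scrambled groups, Mrtfb probe 1 rose by 0.98 ± 0.22 SE on the log2 scale (adjusted p = 0.0206, limma), and probe 2 was at least 1.86-fold higher (adjusted p = 0.00416, limma). As only 1 scrambled array detected probe 1, the scrambled mean is largely background, and the 0.98 sets no upper limit on the change. Both probes passed the detection filter through the mir128 arrays, so a higher level there was built into their being tested. Probe 1 did not pass on intensities without background correction (0.32, adjusted p = 0.0523, limma) or on the authors' processed values (0.12, adjusted p = 0.0912, limma). Without 1 scrambled array, whichever it was, probe 1 did not pass in this comparison (adjusted p = 0.056 to 0.0716, limma). Probe 2 passed there whichever array was left out, but not against shScr1 without an shScr1 array (adjusted p = 0.0804 and 0.0619 without A or B, limma) or against shScr2 without an shScr2 array (0.0792 and 0.0806).

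Mrtfa, the sister cofactor of Mrtfb, read 5.11 and 4.65 in shScr1, 4.44 and 4.89 in shScr2, and 5.33 and 4.95 in mir128 on its only probe. It was detected on both mir128 arrays and on shScr1 A; the mir128 arrays overlapped shScr1 and lay above both shScr2 arrays. Its difference from both scrambled groups was 0.36 ± 0.22 SE on the log2 scale, with an interval of −0.17 to 0.89 (adjusted p = 0.267, limma). As 3 of the 4 scrambled arrays did not detect it, the scrambled mean is largely background, and the difference and its interval set no upper limit on a change of Mrtfa.

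Elk3, a ternary complex factor of SRF, read 5.36 and 5.96 in shScr1, 5.89 and 5.84 in shScr2, and 5.58 and 5.74 in mir128 on the probe that was detected on all 6 arrays. The mir128 arrays lay within the range of shScr1 and below both shScr2 arrays. The difference was −0.10 ± 0.20 SE on the log2 scale (interval −0.57 to 0.37, adjusted p = 0.742, limma). The other Elk3 probe was detected on 0 arrays.

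Klf5, a zinc finger factor linked to growth of smooth muscle cells after injury, gave the lowest adjusted p of the 16 probes against both scrambled groups and against shScr1, but not against shScr2. Its levels were 6.87 and 6.90 in shScr1, 7.90 and 7.66 in shScr2, and 8.61 and 8.69 in mir128. The 3 groups did not overlap, with shScr1 lowest, shScr2 between and mir128 highest. Group means were 6.88 in shScr1, 7.78 in shScr2 and 8.65 in mir128 (n = 2 each).

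Klf5 rose 2.50-fold against both scrambled groups (1.32 ± 0.15 SE on the log2 scale, interval 0.97 to 1.67, adjusted p = 0.00234, limma). The rise was 3.41-fold against shScr1 (1.77 ± 0.17 SE, adjusted p = 0.00221, limma) and 1.83-fold against shScr2 (0.87 ± 0.17 SE, adjusted p = 0.0173, limma). The scrambled groups themselves differed by 0.90 ± 0.17 SE, which is 1.86-fold; the unadjusted p was 0.00131 and the adjusted p was 0.159 (limma). The rise against shScr1 was past the threshold in 16 of 16 alternative analyses, and that against shScr2 in 12 of 16. When any scrambled array was left out that call was lost while the change stayed between 0.75 and 0.99 on the log2 scale, with adjusted p = 0.0551 without shScr1 A or B, 0.0786 without shScr2 A and 0.131 without shScr2 B (limma). The summed level of the smooth muscle markers had the same order of groups, 11620 to 12590 in shScr1, 21080 to 21320 in shScr2 and 24320 to 31740 in mir128. As linear levels were summed, that sum is mainly Acta2, at 13.42 and 13.54, 14.31 and 14.33, and 14.38 and 14.82 on the log2 scale. Acta2 alone did not pass against shScr2 (0.27, adjusted p = 0.365, limma). The part of these markers in the Klf5 and Srf differences was not tested.

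**Figure D2:**
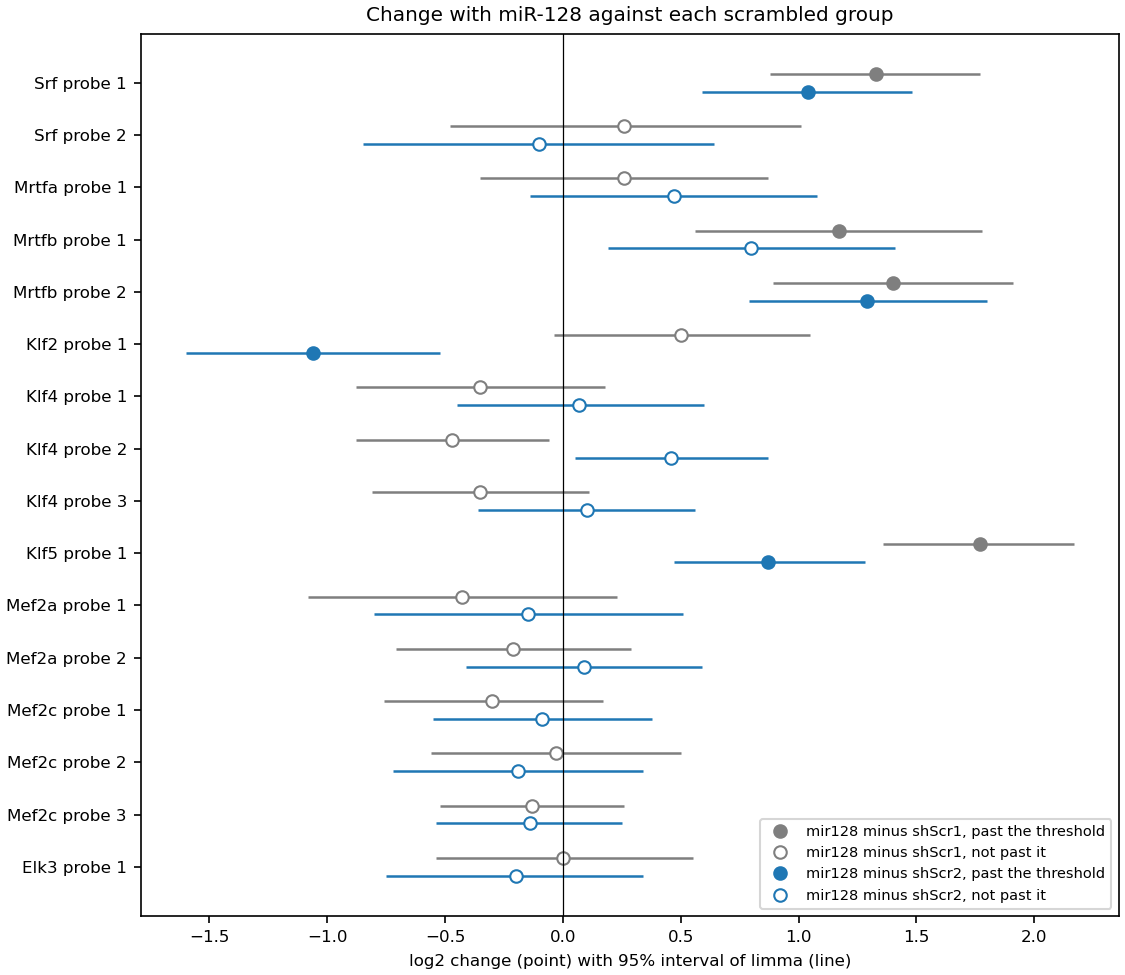
Log2 change (x axis) of each tested probe (y axis) with miR-128, against shScr1 in grey and against shScr2 in blue; lines are 95% intervals of limma and filled points have an adjusted p under 0.05. Srf probe 1, Mrtfb probe 2 and Klf5 are filled on the right in both comparisons, while Klf2 is filled on the left against shScr2 only, at −1.06.

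Klf2 had the largest difference between the scrambled groups among the 16 probes. Its levels were 7.24 and 6.96 in shScr1, 8.61 and 8.72 in shScr2, and 7.87 and 7.34 in mir128. The mir128 arrays lay above both shScr1 arrays and below both shScr2 arrays. With miR-128 Klf2 was 2.09-fold lower than in shScr2 (−1.06 ± 0.23 SE on the log2 scale, interval −1.60 to −0.52, adjusted p = 0.0237, limma). Against shScr1 the difference was 0.50 ± 0.23 SE, with an interval of −0.04 to 1.05 (adjusted p = 0.161, limma).

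Klf2 was 2.96-fold higher in shScr2 than in shScr1 (1.57 ± 0.23 SE on the log2 scale, interval 1.02 to 2.11). That difference had an unadjusted p of 0.000284 and an adjusted p of 0.0986 (limma), above the threshold. Against the mean of both scrambled groups the Klf2 difference was −0.28 (interval −0.75 to 0.19, adjusted p = 0.336, limma), and with arrays scaled to a common median it was 0.01. The call against shScr2 was lost with that scaling (−0.72, adjusted p = 0.208, limma). It was also lost without any 1 of the scrambled arrays, while the change stayed between −1.12 and −1.01 on the log2 scale. Against shScr1, Klf2 passed without mir128 B (0.77, adjusted p = 0.0292, limma). Of 9 endothelial markers on the array, 3 were detected on at least 2 arrays and 5 on 0 arrays. The summed level over the 9 was 251.9 to 256.1 in shScr1, 231.7 to 259.6 in shScr2 and 228.3 to 239.6 in mir128. That sum is largely background and cannot show a change in endothelial cells. Of 7 leukocyte markers 2 were detected, and their summed level was highest in shScr2, at 674.6 to 682.9, against 517.8 to 524.1 in shScr1 and 376.1 to 420.2 in mir128. In shScr2 the leukocyte sum was mainly Cd14, at 9.09 and 9.06 on the log2 scale. The 2 detected markers went opposite ways, Cd14 falling by 1.12 (adjusted p = 0.00777, limma) and Lyz2 rising by 1.32 (adjusted p = 0.0118, limma) on the log2 scale against both scrambled groups. The part of those markers in the Klf2 difference was not tested.

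Klf4, a repressor of contractile genes, was measured with 3 probes detected on all 6 arrays. Klf4 probe 1 read 9.86 and 9.73 in shScr1, 9.46 and 9.29 in shScr2, and 9.72 and 9.18 in mir128. Klf4 probe 2 read 9.46 and 9.53, 8.61 and 8.52, and 9.15 and 8.90. Klf4 probe 3 read 8.13 and 8.43, 7.85 and 7.80, and 8.07 and 7.78. On all 3 probes both shScr1 arrays were higher than both shScr2 arrays, and the mir128 arrays lay between the scrambled groups on probe 2 and overlapped shScr2 on the others.

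No Klf4 probe passed the threshold. Against both scrambled groups the differences were −0.14 (interval −0.59 to 0.32), −0.01 (−0.36 to 0.35) and −0.12 (−0.52 to 0.28) on the log2 scale, with adjusted p of 0.635, 0.985 and 0.623 (limma). These intervals leave out a change of the size of Klf5 in either direction. On probe 2 the difference was −0.47 against shScr1 (interval −0.88 to −0.06, adjusted p = 0.0987, limma) and 0.46 against shScr2 (interval 0.05 to 0.87, adjusted p = 0.107, limma). The scrambled groups differed on that probe by −0.93 ± 0.17 SE, with an unadjusted p of 0.00114 and an adjusted p of 0.153 (limma).

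Klf4 probe 2 passed against shScr1 without background correction (−0.41, adjusted p = 0.0371, limma), on the authors' values (−0.32, adjusted p = 0.0287, limma) and without mir128 A (−0.59, adjusted p = 0.0473, limma). It passed against shScr2 without background correction (0.38, adjusted p = 0.0478, limma) and without mir128 B (0.58, adjusted p = 0.0377, limma). The mean of the 3 Klf4 probes differed from both scrambled groups by −0.09 (adjusted p = 0.706, limma). Of 6 fibroblast markers, 5 were detected, and their summed level was 3124 to 3610 in shScr1, 1958 to 2009 in shScr2 and 2320 to 2955 in mir128. That order of groups is the one seen on Klf4 probe 2, and its part in the Klf4 levels was not tested. Members of the list did not all share it: Dcn was lower in shScr2 (7.82 and 7.78) than in shScr1 (10.30 and 10.10) and mir128 (10.23 and 9.86), whereas Pdgfra and Col1a2 were lowest with miR-128, falling by 0.96 and 0.91 on the log2 scale (adjusted p = 0.0166 and 0.00926, limma).

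Between the scrambled groups, 0 of the 16 probes passed the threshold in limma, and 3 of the 16 (Klf2, Klf4 probe 2 and Klf5) had an unadjusted p under 0.05. Of all probes, 11 passed, which is 0.0831%, and 1401 had an unadjusted p under 0.05; with replicate letter as a block, 4 passed. With array weights, under which 473 of all probes (3.57%) passed, 3 of the 16 passed, with adjusted p of 0.00822 for Klf2, 0.0173 for Klf4 probe 2 and 0.0242 for Klf5 (limma).

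**Figure D3:**
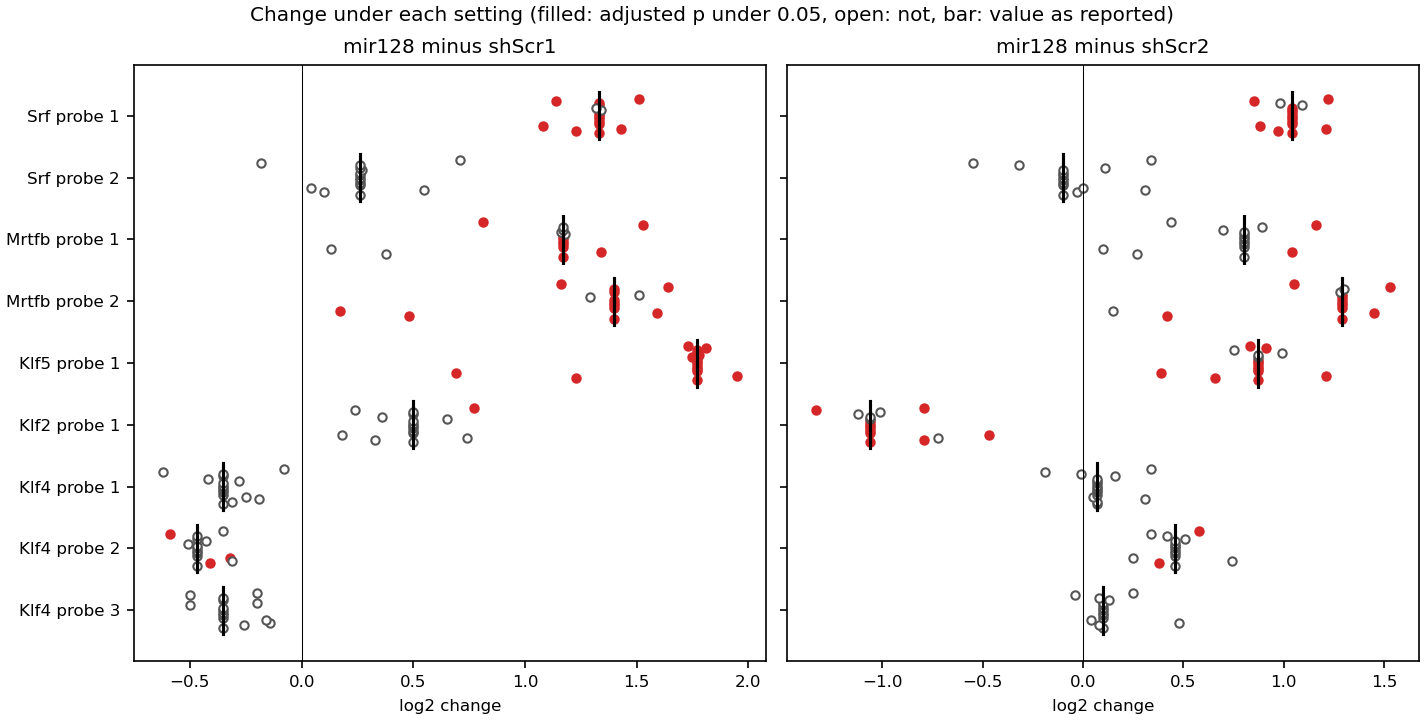
Log2 change (x axis) of 9 probes (y axis) under the reported analysis (black bar) and the alternatives (points), against shScr1 on the left and shScr2 on the right. Probe means per gene are not shown. Filled points have an adjusted p under 0.05 in limma. Every Klf5 and Srf probe 1 point lies above 0 in both panels, and Klf2 lies above 0 on the left and below 0 on the right.

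Mef2c, a MEF2 factor that takes part in smooth muscle and heart development, read 7.64 and 7.91 in shScr1, 7.45 and 7.67 in shScr2, and 7.34 and 7.61 in mir128 on probe 1. The mir128 arrays overlapped shScr2 and lay below both shScr1 arrays. The difference from both scrambled groups was −0.19 ± 0.17 SE on the log2 scale (interval −0.60 to 0.21, adjusted p = 0.441, limma). Mef2c probe 2 ranged from 5.62 to 6.19 over the 6 arrays and differed by −0.11 (adjusted p = 0.709, limma). Mef2c probe 3, detected on 3 arrays, read 4.84 to 5.02 on the scrambled arrays and 4.79 and 4.78 with miR-128, a difference of −0.14 (adjusted p = 0.515, limma) at the limit of detection.

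Mef2a, the other MEF2 factor of the set, read 5.69 and 5.93 in shScr1, 5.39 and 5.67 in shScr2, and 5.01 and 5.75 in mir128 on probe 1. The mir128 arrays lay apart from each other, and the difference was −0.29 ± 0.24 SE on the log2 scale (interval −0.85 to 0.28, adjusted p = 0.409, limma). Without mir128 B it was −0.66 and without mir128 A it was 0.08, so its sign depended on which mir128 array was kept. Mef2a probe 2 differed by −0.06 (interval −0.49 to 0.38, adjusted p = 0.837, limma), and the third probe was detected on 0 arrays.

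The named genes whose pattern over the 6 arrays was closest to Srf probe 1, by the root mean square difference of levels centred on each probe's mean, were Rras at 0.0454, Cfl1 at 0.0614 and Bmpr1b at 0.0663 on the log2 scale. Rras encodes a small GTPase of the Ras family, Cfl1 the actin-severing protein cofilin and Bmpr1b a BMP receptor whose probe was detected on 3 arrays. For Klf4 probe 1 they were Lars at 0.0352, Tbc1d23 at 0.0645 and Stag3, detected on 2 arrays, at 0.0699. These are descriptions over 6 arrays.

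Genes around the regulators were counted in 6 lists, on the brightest tested probe of each gene, against the mean of both scrambled groups. Over all 9010 genes tested, 1338 were higher and 1168 lower at an adjusted p under 0.05 in limma, with a median change of 0 on the log2 scale. The lists were drawn up with earlier results of these arrays known, so their counts are not independent evidence.

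Of 14 tested smooth muscle targets of SRF with myocardin or the MRTFs, 11 rose and 0 fell, with a median change of 1.32 on the log2 scale. Of the 11, Myh11, Mylk and Mrvi1 were detected on 0 scrambled arrays and so were tested only through mir128. Without them 8 of 11 rose, with a median of 1.28. Lmod1, still among those that rose, was detected on 3 arrays and also passed the detection filter only with the mir128 arrays. Synm, which did not pass the threshold, was likewise detected on 3 arrays. Transgelin (Tagln), an actin-binding protein of smooth muscle, read 4.89 and 5.08 in shScr1, 5.24 and 5.53 in shScr2, and 9.75 and 10.10 in mir128, a rise of 4.74 (adjusted p = 0.000121, limma). Smooth muscle gamma-actin (Actg2) read 5.72 and 5.44, 6.85 and 6.79, and 11 and 11.68, a rise of 5.14 (adjusted p = 0.000161, limma). Both stood far above all scrambled arrays. Of 11 widely expressed SRF and MRTF targets, 6 rose and 0 fell, with a median of 0.56. Against shScr1, 5 passed as higher, beside 1059 of all 9010 genes. Against shScr2, 2 passed as higher, beside 994 of all 9010 genes. The adhesion protein gene Pdlim5 rose by 1.01 on the log2 scale (adjusted p = 0.00586, limma) and the actin crosslinker gene Actn4 by 1.2 (adjusted p = 0.0102, limma).

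Of 8 tested partners of SRF outside the set, 4 rose and 1 fell, with a median of 0.32. The LIM protein genes Fhl1 and Csrp1 rose by 2.51 (adjusted p = 0.000335, limma) and 2.43 (adjusted p = 0.000542, limma) on the log2 scale. Csrp1 belongs to a family of LIM adaptors that bridge SRF and GATA factors. The gene that fell was Prrx1, a homeobox factor, by 1.03 on the log2 scale (adjusted p = 0.0189, limma); it was named after its value was seen. Of 6 tested partners with a searched promoter window, Fhl1 and Fhl2 held a CArG box, against 488 of 27025 genes with such a window (1.81%). Fhl2 rose by 1.68 on the log2 scale (adjusted p = 0.00266, limma). Among the target lists, against the mean of both scrambled groups, Vcl and Lima1 held a box and rose, while Cnn2 and Egr2 held a box and did not pass. Lima1 did not pass against shScr1 or shScr2 alone (adjusted p = 0.0855 and 0.0602, limma). Egr2 passed against each of them, in opposite directions. Vcl was the only 1 of the 11 smooth muscle targets with a window to hold a box. Only exact boxes close to annotated starts were searched for, so a gene without a match can hold a box elsewhere or in another form.

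Of 13 tested immediate early targets of SRF with ternary complex factors, 4 rose and 0 fell, with a median of 0.13. Atf3, a stress-induced factor, rose by 1.5 on the log2 scale (adjusted p = 0.00404, limma) and the AP-1 gene Junb by 0.85 (adjusted p = 0.00887, limma). Egr2, a zinc finger factor of the early response, was lower than in shScr1 by 0.87 and higher than in shScr2 by 1.05 on the log2 scale (adjusted p = 0.0144 and 0.00869, limma), with mir128 arrays at 6.41 and 6.45 between shScr1 at 7.35 and 7.25 and shScr2 at 5.44 and 5.31; it was named after its values were seen.

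Of 8 tested KLF genes outside the set, 1 rose and 0 fell, with a median of 0.26. That gene was Klf7, which read 9.15 and 9.32 in shScr1, 9.37 and 9.53 in shScr2, and 10.32 and 10.49 in mir128, a 2.08-fold rise (adjusted p = 0.00484, limma). Klf10, a factor induced by TGF-beta, differed by −0.62 on the log2 scale (adjusted p = 0.0801, limma). Of 6 tested MEF2 and class IIa deacetylase genes, 1 rose and 0 fell, with a median of −0.03. Hdac4, a deacetylase that represses MEF2 factors, read 5.90 and 6.02 in shScr1, 5.90 and 6.10 in shScr2, and 7.12 and 6.73 in mir128, a rise of 0.95 on the log2 scale (adjusted p = 0.0107, limma). Mef2b differed by −0.24 (adjusted p = 0.372, limma).

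**Figure D4:**
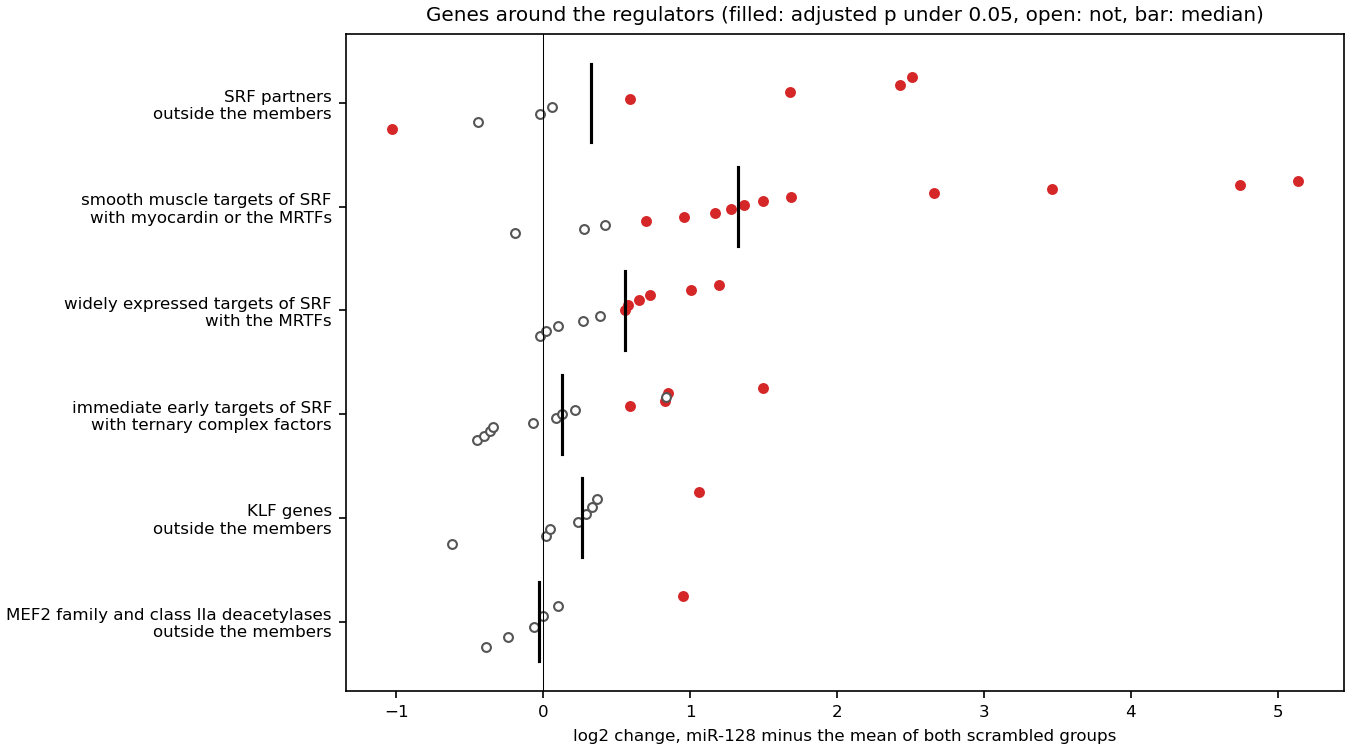
Log2 change against the mean of both scrambled groups (x axis) of each tested gene in the 6 lists (y axis); filled points have an adjusted p under 0.05 in limma and bars are list medians. The smooth muscle targets of SRF lie furthest to the right, with a median of 1.32, while the median of the MEF2 and deacetylase list is −0.03.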

How the data were processed

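Linear intensities of 25697 probes were deposited for the 6 arrays, with a detection p-value beside each intensity in the deposited table. They also deposited a table of processed values, from their range on a log2-like scale, whose transform is not given in the sources used here; it served only as an alternative. GenomeStudio 2011.1, lumi and limma are named per the submitters' processing notes, with no role given.

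R 4.3.3 and limma 3.58.1 were used. The function neqc took the background of each array from its detection p-values, added 16 to the corrected signals, and brought the log2 values to common quantiles. Probes with a detection p-value under 0.05 on at least 2 arrays were tested (13236). By the platform annotation 23978 probes had 1 symbol, 1719 none and 0 several. Group means of the 3 groups were fitted to all 6 arrays with lmFit and eBayes (residual df 3, prior df 3.73, prior SD 0.208), two-sided, with Benjamini-Hochberg adjustment over all probes tested; the fit was tested on simulated data. A probe undetected throughout the lower group has only a lower bound on its fold: the mean of the higher group against, per array, the higher of the lowest detected level and the probe's own. The number of arrays limits the precision.

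The genes, lists and alternatives were chosen with earlier results of these data known. The rule named all 10 regulators, per list the 2 genes of lowest adjusted p (1 further list is not reported here), and for Srf and Klf4 the 3 genes of most similar pattern. Marker levels were summed after log2 values were turned back to a linear scale. Arrays of different groups that share a replicate letter in the labels deviated together weakly (correlations of the A minus B differences 0.114, 0.126 and 0.158). The letter was left out of the reported fit and was fitted as a block in an alternative only. The labels do not say what the letter marks. Other alternatives varied the background correction, scaling, detection filter, variance model, array weights and probe summary, pooled the scrambled groups, or left out each array in turn. Sequences are from RefSeq (GRCm38.p6), matched by symbol and miRNA name.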

Additional observations from a re-analysis of the deposited data

Results flagged for a closer look

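Klf2 was flagged because its mir128 arrays lay above both shScr1 arrays and below both shScr2 arrays; the scrambled groups differed by 1.57 on the log2 scale (shScr2 minus shScr1), and the limma test of that difference gave an adjusted p of 0.0986. Klf4 probe 2 was flagged for the opposite order, with mir128 below both shScr1 and above both shScr2 arrays and a difference of −0.93 between the scrambled groups (adjusted p = 0.153, limma). Klf5 also differed between the scrambled groups, by 0.90, but its mir128 arrays lay above both. Myocd probe 2 was flagged because it was detected on a mir128 array only, at a log2 level of 4.83, and was below the detection filter; with no filter it differed from both scrambled groups by 0.43 (adjusted p = 0.0314, limma).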

How the results depend on the processing

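Leaving out 1 array gave each fit a lone array in a group, assumed to vary like the others. Over those fits the count of regulator probes past the threshold ranged from 3 to 5 against both scrambled groups, 1 to 6 against shScr1, 0 to 5 against shScr2 and 0 to 2 between the scrambled groups. Over all probes the counts ranged from 1481 to 4868, 245 to 4593, 272 to 4207 and 0 to 209. Against both scrambled groups 3545 probes passed, and without shScr1 A 1514, shScr1 B 1481, shScr2 A 1687, shScr2 B 1736, mir128 A 3391 and mir128 B 4868. Requiring detection on all 6 arrays left 2 regulator probes past the threshold against both groups and 2 against shScr1, the Mrtfb probes having no value, where 32.3% and 26.1% of all probes passed; probe means per gene left 2 and 2 genes, where 29.6% and 24% of all genes passed. Between the scrambled groups, 1 regulator probe passed without background correction, 1 with trend and robust variances and 3 with array weights. Array weights lowered the counts over all probes to 1886, 1804 and 1629 in the mir128 comparisons. Between the scrambled groups the 11 probes became 39 without background correction, 6 with median scaling, 7 among probes detected on all 6 arrays, 31 on the authors' values, 43 with trend and robust variances, 473 with array weights and 4 with the replicate block. The replicate block changed no call of a regulator probe, and gave 3573, 2702 and 2437 probes in the mir128 comparisons. Median scaling moved the median of all probes to as much as 0.21, from −0.02 (against shScr2), and lowered the count against shScr1 to 1670. Against both groups it split the calls into 1955 higher and 784 lower (71.4% higher, against 50.5%), with 4 regulator probes still past the threshold. Of the probe values, 862 kept direction and side of the threshold, 33 lost and 20 gained a call, 53 changed sign with neither value past it, and 0 reversed as calls. Probes at the limit of detection, as for Myocd, Mrtfa and Mrtfb, limit what can be said of those genes.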
